A study of Mus musculus with 10 samples.

Results

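Moderate T cell colitis was set against control colon in 7 of the 10 distal colons of the series, each from 1 mouse and measured on 1 array. The members were taken from the sample titles: 3 colons labelled as moderately inflamed after injection of naïve T cells, and 4 labelled as negative controls after injection of Treg cells. The other 3 colons, labelled as severely inflamed after the same kind of naïve T cells, served for comparison and for the estimate of the spread. All the mice were Rag1-/- on the C57BL/6 strain, were injected at 10 weeks of age and were collected 2 to 3 months later, at 4 to 5 months. The control is thus a mouse that received regulatory T cells and not an untreated mouse, and the distal piece reached from the rectum to the junction with the proximal colon. The labels do not say how moderate was told from severe.

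Rag1 is needed to rearrange antigen receptor genes, so these mice make no T or B cells of their own. Naïve CD4+ T cells placed in such a host, without regulatory T cells to restrain them, expand against gut bacteria and bring on a colitis in which interferon gamma, a cytokine of Th1 and cytotoxic cells, is prominent. Interferon gamma raises chemokines, guanylate-binding proteins and MHC genes in epithelium and macrophages. The healthy distal colon takes up salt and water and burns the butyrate that bacteria make, and its surface is renewed from crypt stem cells.

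The labels were checked against markers, with all values on the log2 scale. Rag1 itself read 4.94 to 5.15 in the control colons and 4.97 to 4.99 in the moderately inflamed ones, near the array medians of 5.356 to 5.403. Where its probes lie relative to the deleted part was not examined, so this value checks nothing about the genotype. Of 12 genes of B and plasma cells, Sdc1, which epithelium also makes, had the highest mean (10.80 in control and 10.76 in moderate colon), and Cd22 alone rose, from 5.51 to 5.69 to 6.80, 5.94 and 6.10. The difference of Cd22, 0.68, was 0.42 without moderate replicate 1, and 2 genes of the list rose without moderate replicate 3. The colon was recognisable by high means of Muc2, the main mucin (13.89 and 13.53), Slc26a3, a chloride exchanger (13.65 and 13.34), and Krt20, a keratin of mature cells, which rose by 0.64 (adjusted p = 0.00186). Of the 11 genes of colon identity 2 rose, 3 fell and the median was -0.35. Hoxa13 and Hoxb13, which mark the hindgut end, differed by -0.52 and -0.78, the latter without a call when control replicate 3 or moderate replicate 2 or 3 was left out (-0.75 to -0.70, adjusted p up to 0.0611) or under the methods' t-test (adjusted p = 0.118). The count of rises was 1 without any 1 array, and that of falls was 1 without control replicate 3. The 15 genes of small intestine, stomach and pancreas ranged widely, from Lct, a brush border lactase (2.93 in control and 3.04 in moderate colon), and Cela2a, a pancreatic elastase (3.15 and 3.11), to Apob, of lipoprotein particles (10.70 and 9.87), Tff1, a trefoil peptide (7.87 and 8.12), and Fabp6, a bile acid binder (6.86 and 7.98). Rbp2, a retinol binder, fell by 0.74. Lyz1, the lysozyme of Paneth cells, read higher by 1.93, but its probe set may share sequence with related genes, and the probe set left without such ones, at 0.52 (adjusted p = 0.103), was too dim to check it, with a mean of 3.76 over all arrays. Without control replicate 4 or moderate replicate 2 or 3, 2 genes of this list rose.

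Moderate colitis and control colon differed across a large set of genes. Of 18193 genes tested, 5447 (29.9%) passed an adjusted p of 0.05, with limma's two-sided test and the Benjamini-Hochberg adjustment made over the whole array. In the moderately inflamed colons 2405 genes (13.2%) were higher and 3042 (16.7%) were lower. These shares are the ones to set beside the counts of every gene list. A change of 2-fold or more was seen in 563 of the higher and 707 of the lower genes. Changes of 8-fold or more leaned the other way, with 65 genes higher and 26 lower. The 3 moderate and 4 control values did not overlap for 6983 genes (38.4%), and the median difference of all genes was 0.0285. In bulk tissue, fewer cells of a type and less RNA per cell cannot be told apart.

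**Figure D1:**
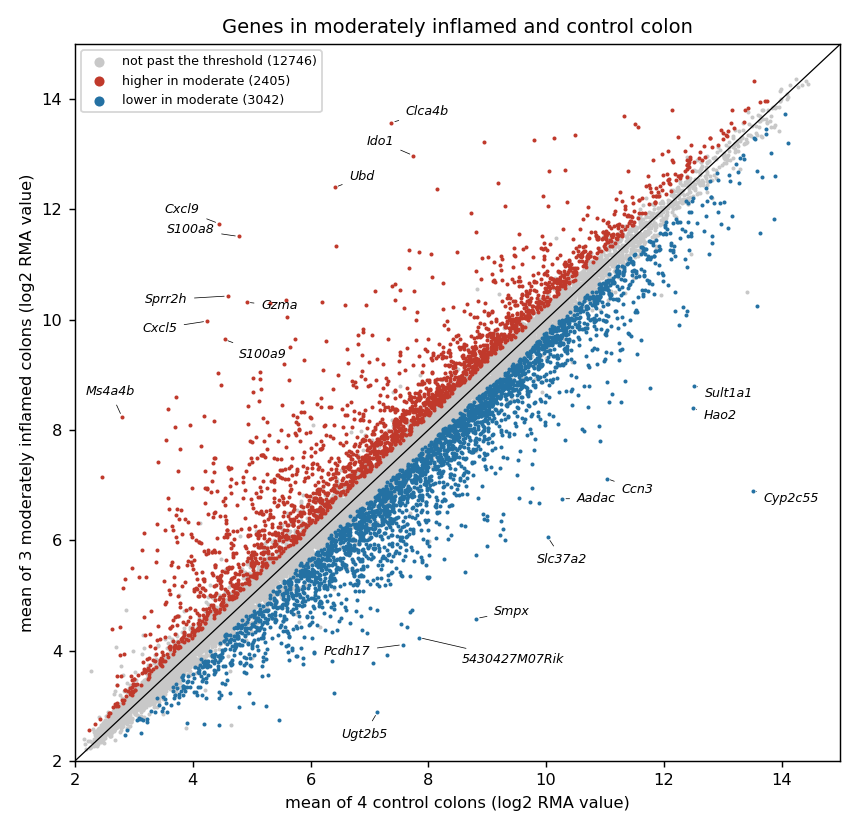
Mean log2 value of each of 18193 genes in the 4 control colons (x axis) and the 3 moderately inflamed colons (y axis). Red and blue points are the 2405 higher and 3042 lower genes at an adjusted p under 0.05, grey points did not pass, the line marks equal values, and the 10 largest rises and falls are named. Cxcl9 lies farthest above the line and Cyp2c55 farthest below it.

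The 10 largest rises were led by Cxcl9 and S100a8. Cxcl9, a chemokine that draws activated T cells, rose 157-fold, S100a8 and S100a9, the subunits of calprotectin, 106-fold and 34.4-fold, and Ubd, a ubiquitin-like modifier, 63.4-fold. Cxcl5, which attracts neutrophils, rose 53.1-fold, Gzma, a granzyme of cytotoxic cells, 42.2-fold, and Ms4a4b, a membrane protein of T cells, 43.5-fold. Ido1, which degrades tryptophan, rose by 5.23 on the log2 scale, and Sprr2h, a protein of the cornified envelope, 57.1-fold. The only probe set of Sprr2h may read close relatives too. Clca4b, of the family of chloride channel regulators, read 7.21, 6.66, 5.57 and 10.04 in the control colons and 13.35, 13.84 and 13.54 in the moderate ones, a rise of 73.6-fold against controls that were themselves far apart. The 10 largest falls were led by Cyp2c55, a cytochrome P450, at 98-fold lower, and Ugt2b5, a glucuronosyltransferase, at 19.1-fold lower. Ugt2b5 ended at 2.72 to 3.06, below the lower quartile of every array (3.824 to 3.923), where the size of a fall is uncertain. The same holds for rises from a control mean below that level, here those of Ms4a4b (2.80), Ifng (3.75), Cd3g (3.54), Clec4e (3.71), Mmp12 (3.70), Arg1 (3.79), Il6 (2.81), Stat4 (3.74) and Il2 (3.17). Smpx, a small protein of muscle, Hao2, a peroxisomal oxidase, Slc37a2, a sugar phosphate exchanger, Ccn3, a matricellular protein, and Sult1a1, a sulfotransferase, had differences of -4.23, -4.10, -3.98, -3.91 and -3.71 on the log2 scale. The transcript 5430427M07Rik, Aadac, a microsomal deacetylase, and Pcdh17, a protocadherin, had differences of -3.60, -3.52 and -3.46. All 20 genes kept their direction and call when any 1 array was left out, which their choice by size and lack of overlap made likely.

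Genes of the response to interferon gamma rose without exception. All 21 measured members were higher at an adjusted p under 0.05, with a median difference of 2.67, beside 13.2% of all genes. Cxcl9 read 4.05, 4.80, 3.80 and 5.13 in the control colons and 12.57, 11.04 and 11.62 in the moderate colons, a difference of 7.30 (SE 0.41, adjusted p = 5.246e-06). Ubd read 6.53, 6.71, 5.25 and 7.16 in control and 13.67, 11.64 and 11.89 in moderate colon, a difference of 5.99 (SE 0.50). Ido1 read 7.25, 7.86, 6.62 and 9.24 against 13.65, 12.21 and 13.07, a difference of 5.23 (SE 0.53). In each of these genes moderate replicate 1 was the highest and the groups were far apart. Further down, Cxcl10, which shares the receptor of Cxcl9, rose by 3.38 (SE 0.36), and Icam1, an adhesion molecule for leukocytes, by 2.90 (SE 0.32). The smallest difference in the list was that of Irf1, a transcription factor, at 1.05; Cxcl10 and Irf1 were chosen after their values were seen.

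The promoters of the 4 members with the largest rises among those that the RefSeq table holds (13 of the 21) are printed to show the letters near their starts. They cover 250 bases before to 50 after each start, on the gene's strand, in build GRCm38.p6. Capitals mark matches to the gamma-activated sequence TTCNNNGAA, a motif of promoters that interferon gamma raises, or to the core of the interferon-stimulated response element, GAAA, any 2 bases and GAAA again, which interferon regulatory factors read. Both were searched on both strands, and neither contains the other.
Cxcl9, chr5:92328030-92328329, minus strand: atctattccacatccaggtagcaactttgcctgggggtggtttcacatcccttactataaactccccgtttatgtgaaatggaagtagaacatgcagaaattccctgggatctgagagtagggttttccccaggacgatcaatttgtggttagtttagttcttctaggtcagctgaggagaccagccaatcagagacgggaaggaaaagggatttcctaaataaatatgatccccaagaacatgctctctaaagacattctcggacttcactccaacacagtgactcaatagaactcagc
Ubd, chr17:37193642-37193941, plus strand: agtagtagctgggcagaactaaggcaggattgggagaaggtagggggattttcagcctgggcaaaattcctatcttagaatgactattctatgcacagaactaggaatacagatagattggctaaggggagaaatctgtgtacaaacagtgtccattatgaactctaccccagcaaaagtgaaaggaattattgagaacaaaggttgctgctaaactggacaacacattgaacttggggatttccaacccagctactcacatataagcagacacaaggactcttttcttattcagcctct
Cxcl10, chr5:92348840-92349139, minus strand: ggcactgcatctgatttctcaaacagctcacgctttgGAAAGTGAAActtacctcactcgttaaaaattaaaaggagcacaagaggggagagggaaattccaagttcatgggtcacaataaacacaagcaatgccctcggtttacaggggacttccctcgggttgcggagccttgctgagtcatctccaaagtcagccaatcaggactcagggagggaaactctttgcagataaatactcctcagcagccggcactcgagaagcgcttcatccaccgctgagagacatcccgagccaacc
Icam1, chr9:21015690-21015989, plus strand: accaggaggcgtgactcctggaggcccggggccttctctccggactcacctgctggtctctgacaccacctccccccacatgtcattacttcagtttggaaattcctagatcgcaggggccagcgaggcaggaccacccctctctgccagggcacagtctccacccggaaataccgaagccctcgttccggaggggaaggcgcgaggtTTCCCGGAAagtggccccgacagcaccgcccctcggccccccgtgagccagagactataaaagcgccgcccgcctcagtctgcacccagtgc
The match in Cxcl10 is a response element core from 213 to 204 bases before the start, and that in Icam1 is a gamma-activated sequence from 42 to 34 bases before it. In Cxcl9 and Ubd neither set of letters occurs in this window. Of the 13 members held, 7 carried the response element core and 5 the gamma-activated sequence, beside 3.44% and 8.3% of the 32851 promoters in the table. Members were counted as genes with a match in any of their promoters, whereas the shares are over single promoters, so the units differ. A match to letters is a description and not a shown binding site.

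Antigen presentation rose as well. All 19 measured members were higher, with a median difference of 1.77. Ciita, the master activator of MHC class II genes, read 4.19, 4.33, 3.52 and 4.50 in control and 8.52, 6.97 and 7.63 in moderate colon, a difference of 3.57 (SE 0.32). H2-DMa, which loads peptides onto class II molecules, rose by 3.67 (SE 0.27), and H2-Ab1, a class II chain chosen here after its values were seen, by 3.30 (SE 0.27). B2m, the light chain of class I molecules, also chosen after its values were seen, rose by 0.41 (SE 0.10), from 13.29 to 13.55 in control to 13.93, 13.65 and 13.93, and its call was lost under the methods' t-test (adjusted p = 0.0538). Genes of the MHC, guanylate-binding protein and Ifit families have close relatives whose RNA a probe set may share.

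**Figure D2:**
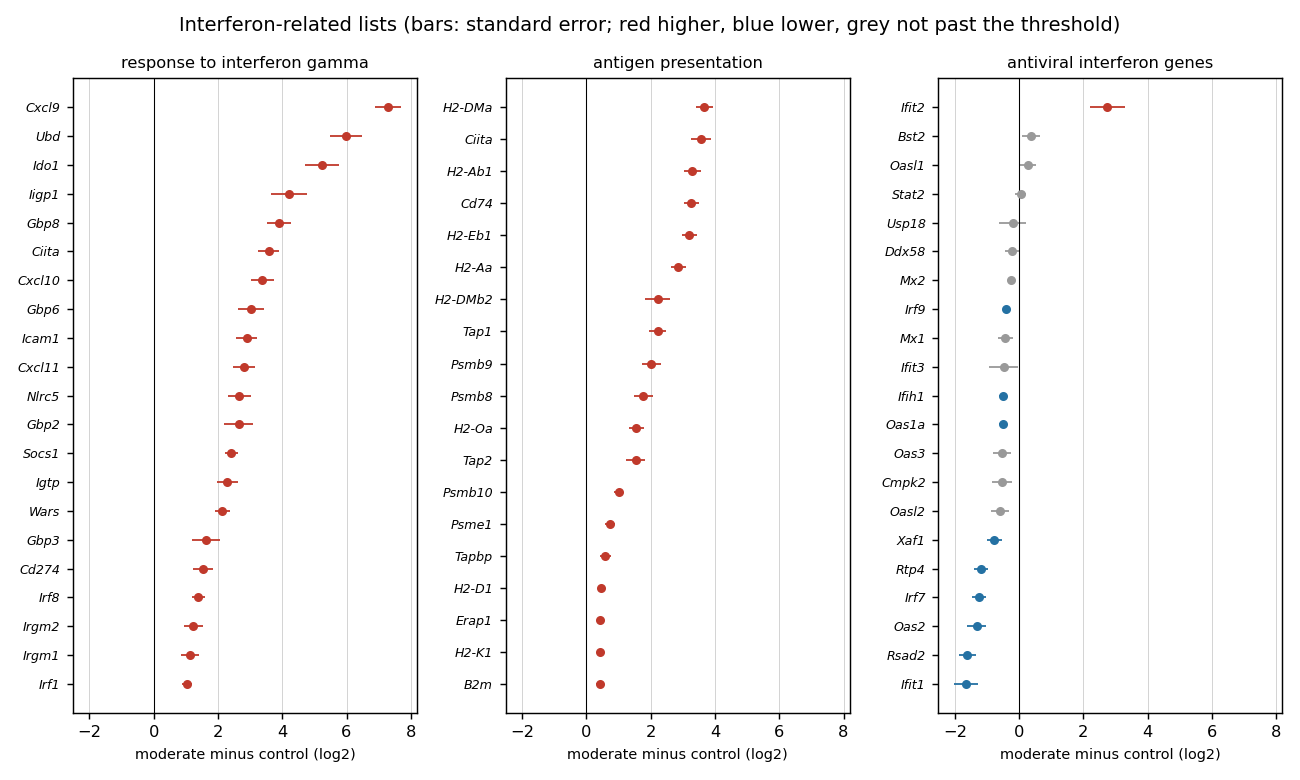
Difference between moderate and control colon (x axis, log2, point with standard error) for every measured gene of 3 lists. All 21 genes of the response to interferon gamma and all 19 of antigen presentation are red (higher), whereas of 21 antiviral genes 1 is red, 9 are blue (lower) and the rest are grey.

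The antiviral genes that type I interferons induce differed mostly downwards. Of 21 measured members 9 fell, beside 16.7% of all genes, 1 rose and the median difference was -0.50. Ifit1, which binds viral RNA, read 11.18, 11.59, 10.85 and 11.32 in control and 10.68, 9.11 and 8.97 in moderate colon, and fell by 1.65 (SE 0.37, adjusted p = 0.00716). Rsad2, the antiviral enzyme viperin, fell by 1.61 (SE 0.27). Oas2, a sensor of double-stranded RNA, and Irf7, the factor that amplifies type I interferon, both chosen after their values were seen, had differences of -1.32 (SE 0.29) and -1.24 (SE 0.22). Ifit2, a close relative of Ifit1, rose by 2.75 (SE 0.54), from 8.61, 9.05, 6.996 and 9.29 to 12.33, 10.48 and 10.88. Moderate replicate 1 stood apart, with a list mean at 0.185 relative to control where replicates 2 and 3 lay at -0.78 and -0.69, and without it 14 members fell. The calls of Ifit1 and Ifit2 were lost under the methods' t-test (adjusted p = 0.0747 and 0.0645).

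T cell genes rose in all 3 moderate colons. Of 18 measured genes of T cells 13 were higher, beside 13.2% of all genes, none was lower, and the median difference was 0.79. Cd3g, a chain of the T cell receptor complex, read 3.62, 3.81, 3.31 and 3.43 in control and 8.61, 7.27 and 7.59 in moderate colon, a difference of 4.28 (SE 0.34). Trat1, an adaptor of the same receptor, rose by 2.49 (SE 0.39). Cd4, the coreceptor of helper T cells, chosen after its values were seen, differed by 0.37 from a control range of 6.10 to 6.34. Its call was lost without moderate replicate 1 (0.31, adjusted p = 0.0755), moderate replicate 2 (0.35) or control replicate 3 (0.32). Of 16 genes of cytotoxic lymphocytes 11 rose, with a median of 1.68. Gzma read 4.85, 4.73, 4.83 and 5.25 in control and 10.65, 9.90 and 10.40 in moderate colon, a difference of 5.40 (SE 0.27, adjusted p = 3.997e-06), and Ccl5, a chemokine of activated lymphocytes, rose by 4.77 (SE 0.47).

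Among 18 measured T helper genes 8 rose, none fell and the median difference was 0.32. Ifng, interferon gamma itself, read 3.56, 3.79, 3.79 and 3.84 in control and 7.54, 6.84 and 7.37 in moderate colon, a difference of 3.50 (SE 0.24, adjusted p = 1.447e-05). Tbx21, the factor that sets the Th1 fate, rose by 1.51 (SE 0.22), Stat4, which relays interleukin 12, by 0.88 (SE 0.21), and Tnf, the inflammatory cytokine, by 1.70 (SE 0.19). Gata3, the Th2 factor, which other lymphocytes also use, rose by 2.23 (SE 0.26), Csf2, a growth factor of myeloid cells, by 0.83 (SE 0.15), and Il2, the growth factor of T cells, by 0.46 (SE 0.14). Ikzf2, the Helios factor, read 7.38, 8.43, 7.92 and 7.73 in control and 8.72, 9.43 and 8.35 in moderate colon. The call of Ikzf2 (0.97) was lost without moderate replicate 2 (0.67, adjusted p = 0.0671) and that of Il2 without any of control replicates 1, 2 and 3 or moderate replicates 1 and 3 (0.39 to 0.48, adjusted p up to 0.105). Il17a, the cytokine of Th17 cells, read 4.24 to 4.42 in control and 4.53, 4.82 and 4.57 in moderate colon, a difference of 0.29 that did not pass (adjusted p = 0.0878). Foxp3, the factor of regulatory T cells, read 3.29 to 3.53 and 3.52 to 3.58, below the lower quartile of the arrays in both groups, although the controls had been given Treg cells. The others that did not pass were Ccr6 (0.34, past the threshold without moderate replicate 3 at 0.49, adjusted p = 0.0314), Il2ra (0.30), Il13 (0.23), Il12rb2 (0.15), Il4 (0.12), Il21 (0.10), Il5 (0.02) and Il10 (-0.08). Il21, a cytokine of follicular helper cells, was past the threshold with its probe set of largest spread (0.68, adjusted p = 0.00822).

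Among myeloid genes, those of macrophages rose most often. Of 27 measured genes of macrophages and monocytes 21 were higher and 1 lower, beside 13.2% and 16.7% of all genes. Clec4e and Clec4d, lectin receptors for microbial and dead-cell ligands, rose by 4.89 (SE 0.52) and 4.15 (SE 0.43). Folr2, a marker of resident macrophages, fell by 0.86 (SE 0.22), from 6.57, 6.62, 7.13 and 6.21 to 5.78, 5.70 and 5.85, a call lost under the methods' t-test (adjusted p = 0.0562). Of 18 neutrophil genes 8 rose, 10 missed the threshold and none fell. S100a8 read 6.77, 4.04, 3.90 and 4.43 in control and 10.24, 13.22 and 11.06 in moderate colon, a difference of 6.73 (SE 0.76), with control replicate 1 the highest control and moderate replicate 2 the highest moderate colon. S100a9 had the same arrays at the top, from 6.10, 4.06, 3.72 and 4.27 to 8.18, 11.20 and 9.54. Of 15 dendritic cell genes 6 rose (3 under the methods' t-test), led by Itgax, the integrin CD11c (2.51, SE 0.32), and Cd83, a maturation marker that other cells also carry, fell by 1.63 (SE 0.20), a count of falls that was 2 without moderate replicate 2. Of 15 genes of mast cells and eosinophils only Mcpt2, a protease of mucosal mast cells, rose, by 2.19, and Kit, which pacemaker cells also carry, fell by 1.34 (SE 0.17). In either direction 13.3% of this list was called, fewer than the 29.9% of all genes. The call of Mcpt2 was lost without any of the 4 control arrays or without moderate replicate 1 (2.10 to 2.38), and without moderate replicate 3 its difference was 1.25 (adjusted p = 0.133). Without moderate replicate 2, 3 genes of this list rose.

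Chemokines and inflammatory cytokines were called higher more often than lower. Of 30 chemokine ligands 17 were higher, 2 were lower and 11 did not pass, with a median of 1.16. Cxcl5 read 3.80, 4.35, 3.99 and 4.82 in control and 8.74, 10.60 and 10.58 in moderate colon, a difference of 5.73 (SE 0.44). Ccl6 fell by 0.75 (SE 0.14), and Ccl11, the eotaxin of stroma and smooth muscle, fell by 1.32. The call of Ccl11 was lost when any control array, or moderate replicate 1 or 2, was left out, and without moderate replicate 2 its difference was -0.92. Of 28 inflammatory cytokines and receptors 16 rose, 3 fell and 9 did not pass. Socs3, the feedback inhibitor of STAT3 signaling, rose by 3.60 (SE 0.47), and Il1b, the cytokine of activated macrophages, by 3.27 (SE 0.45). Il6, which acts through STAT3, read 2.61 to 2.92 in control and 3.70, 7.14 and 4.56 in moderate colon, a difference of 2.33 (SE 0.80, adjusted p = 0.0499) in which moderate replicate 2 was far above the others. Without that array it was 1.33 (adjusted p = 0.1825), and the call was also lost without any control array or moderate replicate 3 (2.26 to 2.61). The 3 that fell were Il15, Il7 and Il18, cytokines that healthy epithelium makes, the first 2 of them to sustain lymphocytes. Il15 read 8.71, 8.78, 8.50 and 8.64 in control and 6.58, 6.86 and 7.04 in moderate colon and fell by 1.83 (SE 0.12, adjusted p = 1.349e-05), and Il7 fell by 1.69 (SE 0.15). Il18 fell by 1.08 (SE 0.31), with a difference of -0.63 without moderate replicate 1, and its call was lost there and without control replicate 2 or 3 (adjusted p up to 0.0584).

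Antimicrobial and barrier genes, which epithelium and neutrophils share, mostly rose. Of 22 measured members 12 were higher and 1 lower, beside 13.2% and 16.7% of all genes. Saa3, an acute-phase protein, rose by 4.90 (SE 0.72), whereas its relatives Saa1 and Saa2 differed by -0.32 and -0.52. Reg3g, a lectin that kills Gram-positive bacteria, rose by 4.27 (SE 1.11). Saa3 and Reg3g were chosen after their values were seen. Control replicate 4 was the highest control in both, since Saa3 read 6.51, 5.81, 4.84 and 8.55 in control and 11.96, 11.31 and 10.72 in moderate colon. Reg3g read 8.90, 7.69, 6.65 and 12.54 and 12.04, 14.13 and 13.48, so that its groups overlapped, and its call was lost without moderate replicate 2 (3.82, adjusted p = 0.0528). Retnlb, a goblet cell product that bacteria and worms induce, read 10.71, 7.61, 9.44 and 12.79 in control and 12.74, 13.65 and 13.47 in moderate colon. Its groups overlapped too. The call of Retnlb (3.15, SE 0.91) was lost without control replicate 3 or moderate replicate 2 or 3 (2.92 to 3.06, adjusted p up to 0.0691). It was also lost with array weights, with an intensity trend and robust variance, and under the methods' t-test. Wfdc2, a protease inhibitor of mucosae, fell by 1.98 (SE 0.26), and 3 members of the list fell without moderate replicate 2. Among 17 genes of regenerating and squamous-like epithelium 6 rose and 2 fell. Ly6d, a surface protein of squamous cells, read 4.76 to 5.30 in control and 8.56, 9.75 and 8.52 in moderate colon and rose by 3.92 (SE 0.27), and Sprr1a, a cornified envelope protein, rose by 3.42 (SE 0.44). The keratins Krt17 and Krt14 had differences of -0.69 (SE 0.14) and -0.43, and neither was called by the methods' t-test (adjusted p = 0.0528 and 0.161). The call of Krt14 was lost without any control array or moderate replicate 2 (-0.45 to -0.22, adjusted p up to 0.0949), and without probe sets that may share sequence its difference was -0.08.

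Genes that mark all epithelial cells went both ways. Of 20 measured 5 rose and 3 fell, beside 13.2% and 16.7% of all genes, with a median of 0.08. Epcam, an adhesion molecule chosen after its values were seen, read 13.84 to 13.87 in control and 13.84 to 13.88 in moderate colon. Cldn4, a claudin of tight junctions, rose by 1.60 (SE 0.30), whereas Ocln, occludin of the same junctions, fell by 0.94 (SE 0.09), from 10.73, 10.97, 10.68 and 10.87 to 9.78, 9.88 and 9.97. Ehf, an epithelial transcription factor, fell by 0.74 (SE 0.11). St14, a membrane protease, differed by 0.47, and only 3 members rose without control replicate 2 or 3 or moderate replicate 1 or 2, St14 losing its call in each case (0.38 to 0.46). Grhl2, the other member that fell, differed by -0.32, by -0.29 without moderate replicate 1, where its call was lost (adjusted p = 0.0516), and by -0.09 as an average of its probe sets.

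Absorptive colonocytes showed a mixed picture. Of 22 genes 6 rose and 5 fell, and the median difference was -0.36. Slc37a2 read 9.60, 10.47, 10.08 and 9.98 in control and 5.76, 5.82 and 6.57 in moderate colon and fell by 3.98 (SE 0.28). Mep1a, a brush border protease, and Guca2a, guanylin, had differences of -2.45 (SE 0.33) and -1.28 (SE 0.27). Guca2b, uroguanylin, the relative of Guca2a, rose by 0.89, and Slc51b, a subunit of the basolateral bile acid transporter, rose by 1.67 (SE 0.23), from 9.71, 9.44, 9.16 and 10.11 to 10.995, 11.37 and 11.46. The counts were thin: 3 rose without moderate replicate 2, 3 fell without control replicate 1, 3 or 4 or moderate replicate 1, and 9 fell when the fit held only the 7 arrays. Car1, carbonic anhydrase 1, fell by 0.80, a call lost without any control array or moderate replicate 1 (-0.43 without the latter, adjusted p = 0.117). Vil1, villin of the brush border, at 0.30, was called in none of the 7 fits without 1 array, and Cdhr5, a cadherin of microvilli, at -0.41, was called in 1 of them. Salt and water transport moved one way, with 10 of 24 genes lower, none higher and a median of -0.47. Aqp1, a water channel of vessels and crypts, and Slc26a2, a sulfate transporter, had differences of -2.45 (SE 0.20) and -1.42 (SE 0.25).

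Of the secretory lineages, enteroendocrine genes fell most often. Of 21 measured 14 fell, beside 16.7% of all genes, with a median of -1.01. Insl5, a peptide hormone of the distal colon, read 11.60, 11.42, 11.91 and 11.22 in control and 9.49, 8.54 and 10.12 in moderate colon and fell by 2.15 (SE 0.41), and Ddc, which completes the synthesis of serotonin, fell by 1.92 (SE 0.18). Tac1, which encodes substance P and is made by enteric neurons too, rose by 1.71 (SE 0.28). Of 23 goblet cell genes 8 fell (5 under the methods' t-test), beside 16.7% of all genes, only Retnlb rose and 14 did not pass. Klk1, a kallikrein, fell by 2.06 (SE 0.26), and Ern2, the stress sensor of mucous cells, fell by 0.88 (SE 0.17). Tuft cells had 4 falls among 14 measured genes and a median of -0.12, and 1 rose without control replicate 4. In either direction 28.6% of this list was called, beside 29.9% of all genes. The falls were led by Rgs13, a regulator of G protein signaling (-3.21, SE 0.43), and Hpgds, a prostaglandin D synthase (-1.33, SE 0.17). Of 23 genes of stem cells and Wnt targets 9 fell, beside 16.7% of all genes. They were led by Znrf3 (-1.17, SE 0.17), a ligase that removes Wnt receptors. Nkd1, another Wnt feedback inhibitor, fell by 0.97, but differed by only -0.21 when averaged over its probe sets (adjusted p = 0.133). Cd44, an adhesion receptor that leukocytes share, and Msi1, a stem cell RNA-binding protein, rose by 0.97 and 0.47. Without control replicate 2 or moderate replicate 1 the call of Cd44 was lost (0.81 and 0.73), and without moderate replicate 2 that of Msi1 (0.40), which averaged over its probe sets was 0.09.

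Xenobiotic metabolism held 4 of the 10 largest falls, those of Cyp2c55, Ugt2b5, Hao2 and Sult1a1. Of 31 measured genes 22 were lower, none was higher and the median was -1.09, while 1 rose without control replicate 3 or moderate replicate 3. Cyp2c55 read 13.70, 13.16, 13.61 and 13.57 in control and 5.73, 6.99 and 7.97 in moderate colon and fell by 6.62 (SE 0.40, adjusted p = 7.434e-06). Sult1a1 held at 12.47 to 12.58 in control and read 8.44, 7.63 and 10.33 in moderate colon (-3.71, SE 0.68). Hao2, at 12.35 to 12.65 in control, read 6.31, 9.01 and 9.85 in moderate colon (-4.10, SE 0.92). The moderate colons were thus more spread than the controls in Cyp2c55, Sult1a1 and Hao2. The lack of overlap was a condition of their choice, and Hao2 was also chosen for its wide moderate range. Cyp2c and Ugt2b genes have close relatives whose RNA a probe set may share.

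Energy metabolism split by pathway. Of 19 genes of glycolysis and hypoxia 17 rose, none fell and the median was 0.675. Egln3, an oxygen sensor that hypoxia induces, read 8.93, 9.34, 8.99 and 9.19 in control and 11.02, 11.14 and 10.95 in moderate colon, a difference of 1.93 (SE 0.11, adjusted p = 5.246e-06), and Pfkfb3, which drives glycolysis, rose by 1.82 (SE 0.24). Of 24 genes of fatty acid oxidation and ketogenesis 17 fell and 1 rose, with a median of -0.44. Ppargc1a, a coactivator of mitochondrial genes, fell by 1.77 (SE 0.20), from 9.97, 10.25, 10.01 and 9.96 to 8.38, 8.15 and 8.32, and Ppara, the nuclear receptor for fatty acids, fell by 1.40 (SE 0.13). Acadl, a dehydrogenase of long chains, was the exception and rose by 0.65 (SE 0.10). Among 24 subunits of the respiratory chain only Ndufb5, of complex I, passed (-0.46, SE 0.10), and the median was -0.05. With the probe set of largest spread for each gene, 5 of these subunits fell and 1 rose.

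**Figure D3:**
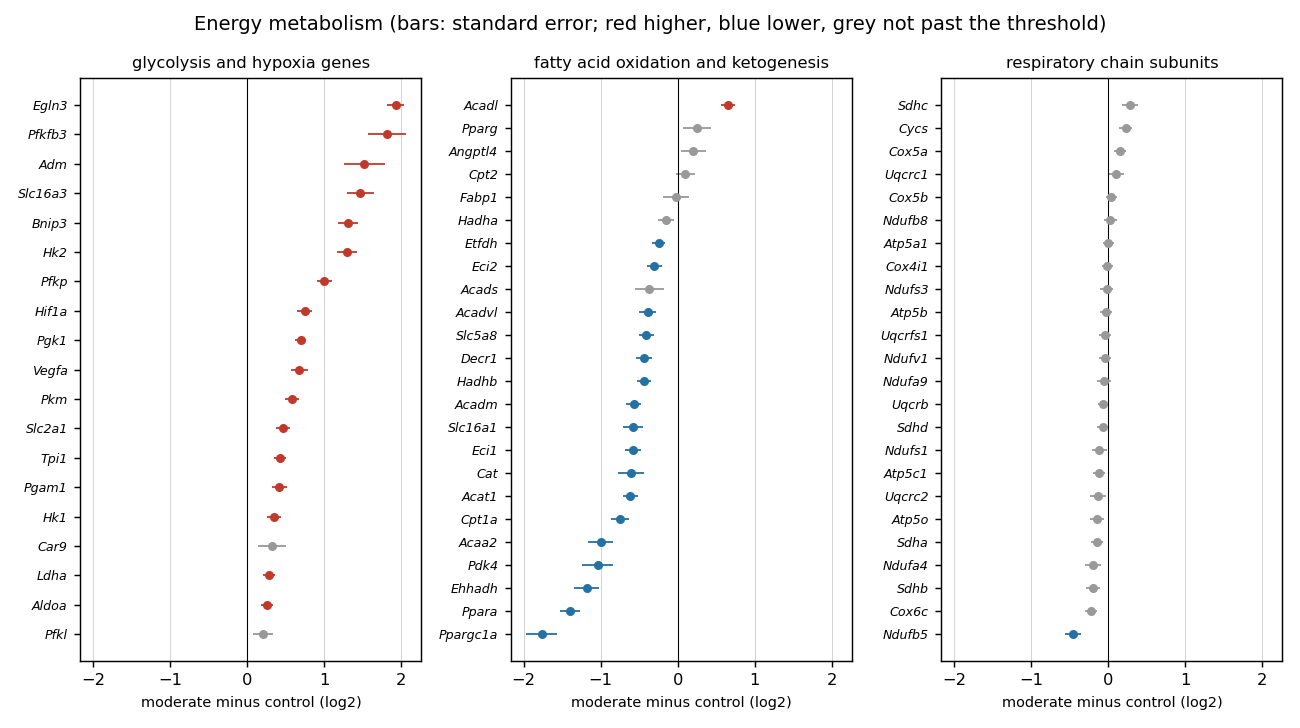
Difference between moderate and control colon (x axis, log2, point with standard error) for every measured gene of 3 lists of energy metabolism. Glycolysis and hypoxia genes lie to the right of 0 (17 of 19 higher), fatty acid oxidation genes mostly to the left (17 of 24 lower), and respiratory chain subunits around 0 (1 of 24 lower).

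Genes of dividing cells were higher in moderate replicates 1 and 3 than in replicate 2. Of 24 measured members of the list for G2 and M phases, 17 were called higher, with a median of 0.685, and none lower. Birc5, survivin, read 8.75, 8.75, 8.60 and 8.77 in control and 9.74, 9.37 and 9.99 in moderate colon, a difference of 0.98 (SE 0.14), and Plk1, a mitotic kinase, rose by 0.93 (SE 0.15). The methods' t-test called 8 of the list. Of 25 S phase genes 28% were called, beside 29.9% of all genes in either direction. Among them 7 rose, beside 13.2% of all genes, and none fell, with Rrm2, which makes deoxynucleotides, up by 1.67 (SE 0.16). This count rested on few arrays: it was 3 without control replicate 1 or moderate replicate 1, 4 without control replicate 2 or moderate replicate 3, 12 without moderate replicate 2, and 2 under the methods' t-test, and 1 member fell without moderate replicate 3. The list mean over S phase relative to control was 0.475, -0.13 and 0.51 in moderate replicates 1, 2 and 3.

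Smooth muscle genes fell without exception. All 18 smooth muscle genes fell, beside 16.7% of all genes, with a median of -1.395. Smpx read 8.52, 9.25, 8.94 and 8.54 in control and 4.33, 3.55 and 5.86 in moderate colon (-4.23, SE 0.43), and Pln, the regulator of the calcium pump, fell by 2.32 (SE 0.26). The smallest fall was that of Myocd, the coactivator of smooth muscle genes (-0.68), chosen after its values were seen and not called as an average of its probe sets (-0.30, adjusted p = 0.0502). Of 19 genes of enteric neurons, glia and pacemaker cells 10 fell and none rose, led by Snap25, a synaptic protein (-1.97, SE 0.30). Of 24 genes of fibroblasts and matrix 6 fell (25%, beside 16.7% of all genes) and 18 missed the threshold, and 10 fell when the fit held only the 7 arrays. Lum and Postn, proteins of the collagen matrix, had differences of -1.87 (SE 0.33) and -1.70 (SE 0.23). Of 17 genes of endothelium and homing 4 fell and 2 rose, beside 16.7% and 13.2% of all genes, led by Lyve1 of lymphatic vessels (-2.33, SE 0.28), and Vcam1 and Icam1, adhesion molecules that inflamed vessels and stroma raise, rose. Vcam1 read 6.53 to 6.97 in control and 9.68, 8.19 and 8.78 in moderate colon (2.17, SE 0.34). The mean of the smooth muscle genes relative to control was -1.40, -2.07 and -1.28 in moderate replicates 1, 2 and 3, and that of neurons and glia -0.55, -0.935 and -0.71, so both were lowest in replicate 2. Pan-epithelial genes had means of 0.09, 0.12 and 0.035 in the same arrays. What part a different share of muscle wall in the tissue piece has in the falls of any list was not tested.

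Tissue-degrading enzymes rose. Of 17 matrix proteases and inhibitors 10 were higher, led by Mmp12, the elastase of macrophages, which read 3.34, 3.85, 3.72 and 3.88 in control and 8.61, 8.22 and 7.35 in moderate colon (4.36, SE 0.44), and Mmp13, a collagenase, which rose by 3.80 (SE 0.67). The inhibitors Timp2 and Timp3 were lower (-1.44, SE 0.25, and -1.35, SE 0.35), whereas Timp1, another inhibitor, differed by 0.90. Timp3 had no call when moderate replicate 1 or 2 was left out (-1.26 and -1.16). Of 13 complement genes 7 rose, beside 13.2% of all genes, and Cd59a, which protects cells from complement, fell by 0.52 (SE 0.10). C1qb, a chain of the first component, rose by 1.74 (SE 0.36), while C1qa, its partner, lost its call without moderate replicate 1 (1.13, adjusted p = 0.0623). Only 3 complement genes rose without control replicate 1 or moderate replicate 1, and 4 without moderate replicate 3.

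The 3 moderate colons differed among themselves. The first principal component of all genes over the 10 arrays held 74.5% of the variance. It placed the control arrays at -54.9, -51.6, -55.8 and -46.2, with control replicate 4 nearest to the inflamed arrays. That array also had the highest control mean of antimicrobial genes (0.558) and of the response to interferon gamma (0.458), though not of neutrophil genes (-0.079). The moderate arrays lay at 34.4, 29.6 and 18.3, so that moderate replicate 3 was nearest to control. The severe arrays lay at 49.5, 32.9 and 43.9. Among the 5447 called genes, moderate replicate 1 was the farthest from control in 2407, replicate 2 in 1987 and replicate 3 in 1049. The order turned with the gene group. Means over the response to interferon gamma relative to control were 3.72, 2.34 and 2.87 in replicates 1, 2 and 3, whereas those of neutrophil genes were 1.54, 2.14 and 1.455. The 5 called genes with the widest range over the moderate arrays were Hao2, Arg1, Il6, Mcpt2 and Lrg1. Arg1, arginase of alternatively activated macrophages, read 3.52 to 4.43 in control and 5.18, 8.64 and 5.82 in moderate colon, and its difference of 2.75 was 1.71 without moderate replicate 2 and not past the threshold (adjusted p = 0.117). Its call was lost too without control replicate 1, 3 or 4 (2.66 to 2.70). Lrg1, an acute-phase glycoprotein, read 4.90 to 6.06 in control and 8.64, 11.73 and 10.51 in moderate colon (4.99, SE 0.56). With 3 arrays, no test of spread was made.

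**Figure D4:**
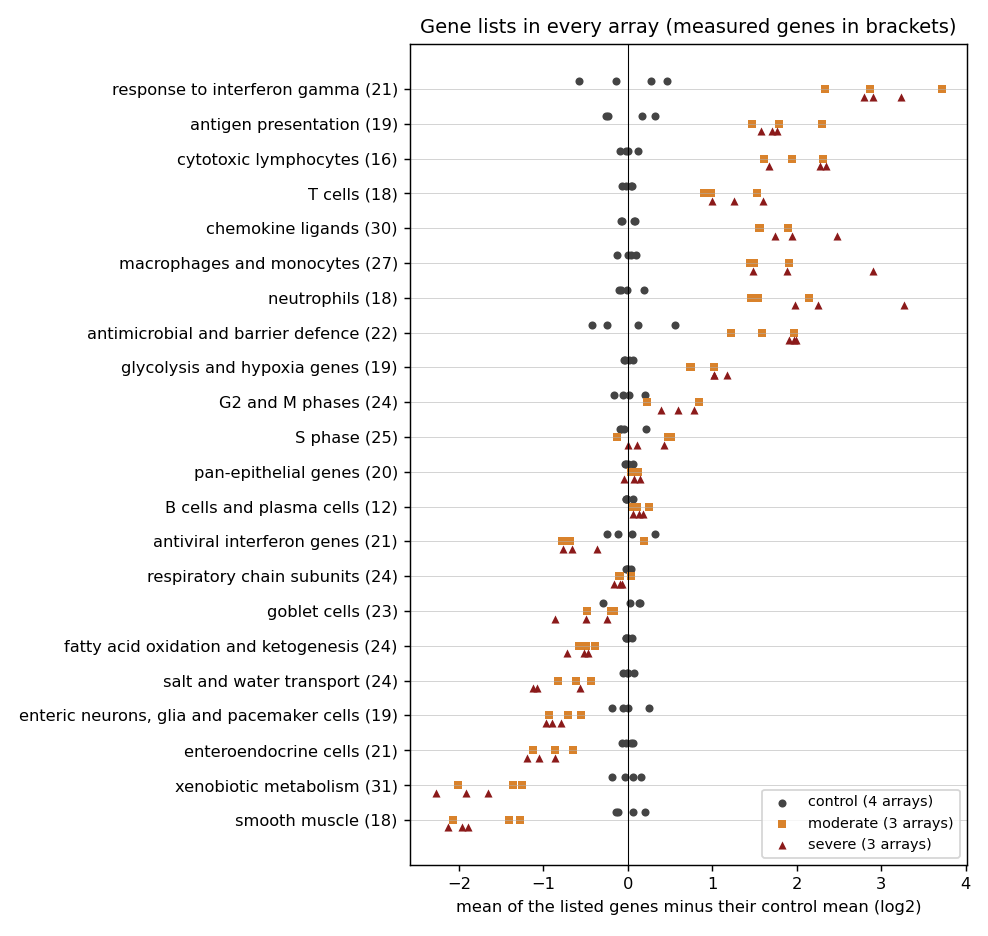
Mean log2 value of the measured genes of 22 lists minus their mean in the control colons (x axis), for each array: 4 control (grey circles), 3 moderate (orange squares) and 3 severe (dark red triangles). The moderate arrays lie apart from the controls for the interferon gamma, smooth muscle and xenobiotic lists, while for antiviral genes 1 moderate array, at 0.185, lies among the controls.

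Severe colitis was the nearest other condition, and no gene passed the threshold between severe and moderate colons (limma, 3 against 3 arrays, smallest adjusted p = 0.233, 0% called). At an unadjusted p under 0.05, 922 genes (5.07%) passed, 397 higher and 525 lower in severe colon. That share is close to the one that this threshold lets through when no gene differs, but it does not show that the groups are alike. Of the 5447 genes called between moderate and control colon, 3658 had a moderate mean between the control and severe means. That count was not tested. The methods' t-test, too, called 0 after adjustment, with 643 at an unadjusted p under 0.05. The count depended on the arrays, since 20 genes were called without moderate replicate 2, 5 without severe replicate 2 and 1 without moderate replicate 1. The 3 genes with the smallest p were Msln, Myb and S100g, named after their values were seen. Myb, a factor of progenitor cells, read 10.66, 10.53 and 10.59 in moderate and 10.13, 10.06 and 9.96 in severe colon, with 10.97 to 11.06 in control. Msln, mesothelin, read 4.48, 4.36 and 4.63 in moderate and 5.16, 5.13 and 5.18 in severe colon, and S100g, a calcium-binding protein of absorptive cells, 5.90, 6.29 and 6.28 and 4.48, 4.68 and 3.74. The groups did not overlap in any of these genes, which their choice by the smallest p made likely.

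For some genes that changed in moderate colitis, the interval of the severe difference is given. These intervals are for single genes and are not adjusted for the number of genes, so one that leaves out 0 is not a call. Cxcl9 differed by -0.09 in severe from moderate colon (95% interval -1.05 to 0.88), and Ubd by -0.08 (-1.27 to 1.11). Intervals of this width leave room for differences of about 2-fold either way. Cxcl5 read 12.39, 11.30 and 11.75 in severe colon, all above the 3 moderate values, and differed by 1.84 (0.80 to 2.89, adjusted p = 0.799). Pfkfb3 differed by 1.31 (0.74 to 1.89, adjusted p = 0.469). Cyp2c55 read 4.60, 5.07 and 4.97 in severe colon, all below the moderate values, and differed by -2.01 (-2.96 to -1.07, adjusted p = 0.551). Without moderate replicate 1 this difference was -2.60 and past the threshold (adjusted p = 0.0483). Eno3, a muscle enolase also named after its values were seen, differed by -2.08 (adjusted p = 0.328), and by -2.44 without severe replicate 2 (adjusted p = 0.0457). For neutrophil genes the list mean relative to control was 3.27, 1.98 and 2.25 in the severe arrays, which overlapped the moderate ones.

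**Figure D5:**
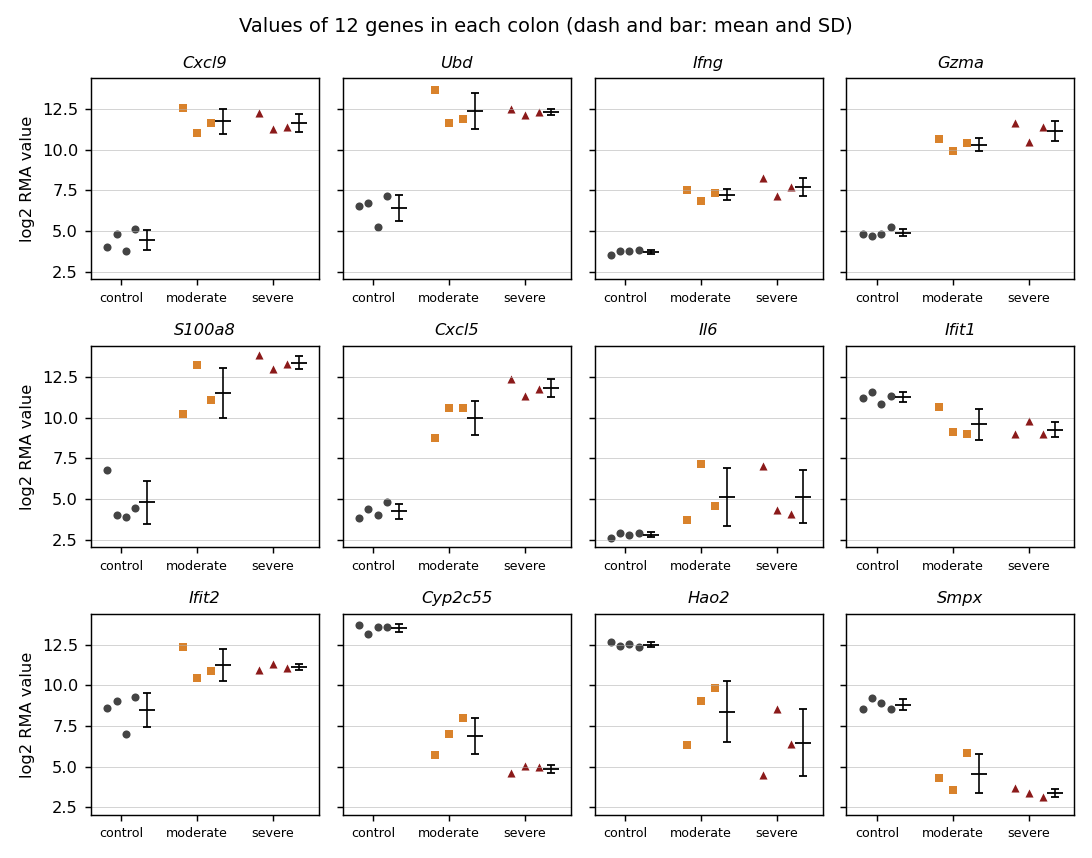
Log2 values (y axis) of 12 genes in each of 4 control (grey circles), 3 moderate (orange squares) and 3 severe colons (dark red triangles), with the mean and SD of each group. Moderate values lie above every control in Cxcl9, Ubd, Ifng, Gzma, S100a8, Cxcl5, Il6 and Ifit2 and below every control in Ifit1, Cyp2c55, Hao2 and Smpx, and the 3 moderate values of Il6 and Hao2 are the farthest apart.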

How the data were processed

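RNA from the distal colon of 10 mice was hybridised to Affymetrix mouse expression arrays, 1 per mouse. The authors deposited RMA values on the log2 scale, 1 per probe set and array. The submitters' processing notes name Affymetrix Expression Console, and RMA corrects the background, equalises the quantiles of the arrays and summarises probes by median polish; versions are not given in the sources used here. Equal quantiles give all arrays 1 distribution, so overall shifts in RNA amount are not visible. No scan date was used, so batches of scanning were not examined. Array medians were 5.356 to 5.403, with 0 missing values. Precision is limited by the number of arrays.

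Of 45101 probe sets, 34945 were annotated to 1 gene and used, 932 to several and 9160 to none, and 64 were controls. Of the 18193 genes 9010 had over 1 probe set, and each was represented by its probe set of highest mean across the 10 arrays. Symbols were checked by gene identifier against RefSeq, which held 34741 and changed 0.

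The test was limma's (version 3.58.1, R 4.3.3, functions lmFit and eBayes, two-sided, Benjamini-Hochberg over all genes, threshold 0.05) in 1 model of control, moderate and severe colon, with the contrasts moderate minus control and severe minus moderate. The labels call the samples biological replicates, 1 mouse each. The 41 gene lists were written from general knowledge, and 764 of their 843 genes were measured. The members and lists were chosen with earlier results of these data known. Named genes were the 10 largest rises and falls without overlap, the 2 largest of each direction per list, all T helper genes, members called against their list, the 5 called genes with the widest moderate range, and check lists; others are said to be chosen later. Alternatives were the value per gene, probe set and dim gene filters, scaling, variance model, array weights, the samples fitted, the methods' t-test, a replicate block, and each array left out. Promoters are from RefSeq, build GRCm38.p6. Figures were drawn with matplotlib 3.10.9.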

Additional observations from a re-analysis of the deposited data

Results flagged for a closer look

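In 6 of 79 sets of 4 control values examined (the control values of genes with the largest changes and of T helper genes, and the control means of the lists), 1 array lay far from the others by Dixon's criterion, which chance alone meets in about 1 in 20. Il10 read 3.36, 3.19, 3.19 and 3.17 in control replicates 1 to 4, with replicate 1 high, and all were below the lower quartile of the arrays. Sprr2h read 4.92, 3.67, 4.99 and 4.80 in the same order, with replicate 2 low. Tbx21 read 4.42, 4.36, 4.37 and 3.85, with replicate 4 low, and its rise was 1.38 (adjusted p = 0.00195) without that array. Among list means relative to control, S phase genes stood at 0.22 in control replicate 3, where the others were at -0.099 to -0.045. B and plasma cell genes stood at 0.061 in control replicate 4, with the others at -0.025 to -0.014, and immediate early genes at 0.051 in the same array, with the others at -0.021 to -0.013.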

How the results depend on the processing

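Over 18 other settings, the 2405 higher genes of moderate colon became 1663 to 2664 and the 3042 lower genes 2174 to 3477, the fewest under the methods' t-test. Without 1 array the counts were 1807 to 2229 and 2453 to 2762. Higher genes made up 44.2% of calls, 44.7% with arrays centred on their medians and 47.5% with repeated quantile normalization, and neither moved the median of all genes by more than 0.01 from 0.0285. Of 140 called genes followed by name, 106 kept direction and call throughout and 34 lost the call in at least 1 setting, 25 of them under the methods' t-test. Atf6, a stress sensor, was the only called one to reverse, from a fall of 0.35 (called) to 0.10 as the mean over its probe sets and to 0.41 (adjusted p = 0.0144) with the probe set of largest spread. Il5, near 0 and not called, turned to -0.00036 with array weights, -0.023 with repeated quantile normalization, and -0.028 to 0.062 over the fits without 1 array. Of 82 list counts, 48 stayed within 1.5 times in all settings and 26 moved further in one that kept all arrays. Severe against moderate had 0 calls in every setting that kept all arrays and 0 to 20 without 1 array. Deviations from the group means correlated at -0.015, -0.078 and 0.057 between same-numbered moderate and control arrays. Between same-numbered moderate and severe arrays they correlated at 0.293, 0.254 and -0.03, and between the differently numbered ones at -0.311 to 0.061. So few arrays cannot settle whether the replicate numbers pair any mice. With the replicate number as a block, 2088 genes were higher and 2743 lower than in control. Signal over background was not available per probe set, and differences that start or end below the lower quartile of the arrays are uncertain in size.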

Other observations

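Among genes of protein folding, the clock and the immediate early response, some also differed between moderate and control colon. Of 23 genes of the unfolded protein response 13 rose and 3 fell, beside 13.2% and 16.7% of all genes. The largest rises were those of Psat1 and Phgdh, enzymes of serine synthesis, at 1.83 (SE 0.23) and 1.38 (SE 0.18), whereas Ddit3, the stress factor CHOP, fell by 0.50 (SE 0.11), from 8.10, 7.85, 7.97 and 7.73 to 7.47, 7.50 and 7.29. Ern2 and Atf6, the latter uncertain between probe sets, were the others that fell. Of 17 clock genes 8 fell, beside 16.7% of all genes. Only Nfil3, which opposes Dbp at the same DNA sites, rose, by 1.43 (SE 0.20). Dbp, an output factor of the clock, read 9.41, 10.41, 9.85 and 10.27 in control and 8.13, 7.46 and 8.85 in moderate colon and fell by 1.84 (SE 0.33), and Nr1d2, a repressor of the clock loop, fell by 1.01 (SE 0.12). Without control replicate 1 or moderate replicate 3, 2 clock genes rose. Of 20 immediate early and stress genes 6 rose and none fell, so 30% were called, beside 29.9% of all genes. The rises were led by Egr2 (2.34, SE 0.35, from a control mean of 3.71, below the lower quartile of the arrays) and Ier3 (1.48, SE 0.19). Of 8 genes of adipose tissue and blood, Pck1, which the colon epithelium may make too, fell by 3.02 (SE 0.30), from 9.49, 9.89, 9.87 and 9.63 to 5.96, 6.90 and 7.23. Fabp4, of fat cells and vessels, fell by 0.91, a call lost without any array but control replicate 4 (with -0.72 as the smallest difference, adjusted p up to 0.135). Of 4 sex-linked genes none differed by the test, and Xist read 4.88 to 5.13 in control and 5.09 to 5.29 in moderate colon.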
